A study of Mus musculus with 2 samples.

Results

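The collagen genes of the mouse heart are described here from total RNA of aged females (18 to 20 months) of the mouse strain B6CASTF1/J, an F1 hybrid of C57BL/6J and CAST/EiJ. The members were all genes named Col, a number, a and a number, that have at least 1 protein-coding transcript. The rule found 44 of the 55536 Ensembl genes in the gene table, and it used no measured value. There was 1 group of 2 libraries, biological replicates 1 and 2, each prepared as a stranded, ribosome-reduced library from 300 ng of total RNA with ERCC spike-ins added. The labels name separate biosamples but the same donor entry, so the spread between the libraries may be technical. With 1 group there was no contrast between conditions and no test of one, and each value is set against the gap between the libraries.

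Collagens are secreted proteins whose chains wind around each other in a helix, and most of them build the scaffold outside cells. Fibrillar collagens such as I, III and V form the fibres of the interstitium, collagen IV forms the sheet-like network of basement membranes around muscle cells and vessels, and FACIT collagens sit on the surface of fibrils. Fibroblasts are the main source of fibrillar collagen in the heart, while endothelial cells, mural cells and muscle cells also make basement membrane. Collagens II, IX, X and XI are best known from cartilage.

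The rule covers proteins of different builds, and 3 exons show how the classes differ in sequence. Each is written in frame from the coding strand of build mm10, with glycine codons in capitals. The first and the second lie in the helix of fibrillar chains and are the middle ones, in order along the gene, of 19 and 16 exons of 54 nt with unbroken glycine spacing. The third comes from Col4a1, which led all members in level, and is the middle one of 5 exons picked because that spacing is interrupted.
Col1a1 exon, chr11:94944598-94944651, plus strand: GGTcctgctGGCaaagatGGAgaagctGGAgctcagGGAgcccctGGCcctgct
Col3a1 exon, chr1:45331973-45332026, plus strand: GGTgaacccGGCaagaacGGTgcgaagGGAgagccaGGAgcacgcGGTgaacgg
Col4a1 exon, chr8:11241122-11241208, minus strand: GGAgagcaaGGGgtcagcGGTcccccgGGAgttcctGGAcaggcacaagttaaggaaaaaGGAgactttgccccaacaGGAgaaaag

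The fibrillar exons were picked for unbroken spacing, and in them a glycine codon recurred every 3 codons, 6 of them in 18 codons. The Col4a1 exon is 87 nt long and held 7 glycine codons in 29 codons, with stretches in which the spacing is lost. Whole chains differed in the same way, as read from the longest annotated coding transcript. The longest unbroken run of Gly-X-Y triplets was 338 triplets in Col1a1 and 344 in Col3a1, and the median over the 8 soft-tissue fibrillar chains was 338. In the 6 collagen IV chains the longest run was between 39 and 66 triplets, and their helix was split into 23 to 27 runs of 3 triplets or more. Of the internal coding exons, 49.1% were exactly 54 nt long in soft-tissue fibrillar genes, 46.2% in cartilage collagen genes, 21.1% in soft-tissue FACIT genes and 4.23% in collagen IV genes. Among all other protein-coding genes the share was 0.457%.

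The tissue label was checked against markers of cardiomyocytes, the contractile cells of the heart. Myh6, the alpha heavy chain of cardiac myosin, had 8594 and 8547 TPM in replicates 1 and 2, while Myh4 and Myh2, myosin heavy chains of fast skeletal muscle, were listed at 0 in both. TPM, the abundance of a transcript relative to all others, is per length and may be compared between genes. The libraries held 35897521 and 36926429 expected counts (replicates 1 and 2), and a value of 0 counts allows a level of up to 3 counts, which is 0.0836 and 0.0812 CPM. Replicate 2 stood apart in genes of other tissues. The 6 airway epithelium markers summed to 233.8 TPM in replicate 2, against 0.61 TPM in replicate 1, and the 7 adipocyte markers to 320.9 against 28.1 TPM. For this reason every collagen value is given for each library.

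Collagen transcripts were a small part of the RNA. The 44 genes summed to 257.0 and 321.0 TPM in replicates 1 and 2, a mean of 289.0 ± 45.2 TPM (SD, n = 2). This was 0.0622% and 0.0802% of the TPM of protein-coding genes. At 1 TPM or more in both libraries, 18 of the 44 members (40.9%) were detected, against 49.9% of the 22015 nuclear protein-coding genes. The members' share was below the background, and detection does not set the family apart. A few genes held most of the signal: Col4a1 alone took 27.2% ± 1.17 of the collagen TPM, the 3 highest genes 55.3% ± 2.56 and the 10 highest 88.5% ± 0.48 (SD, n = 2).

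**Figure D1:**
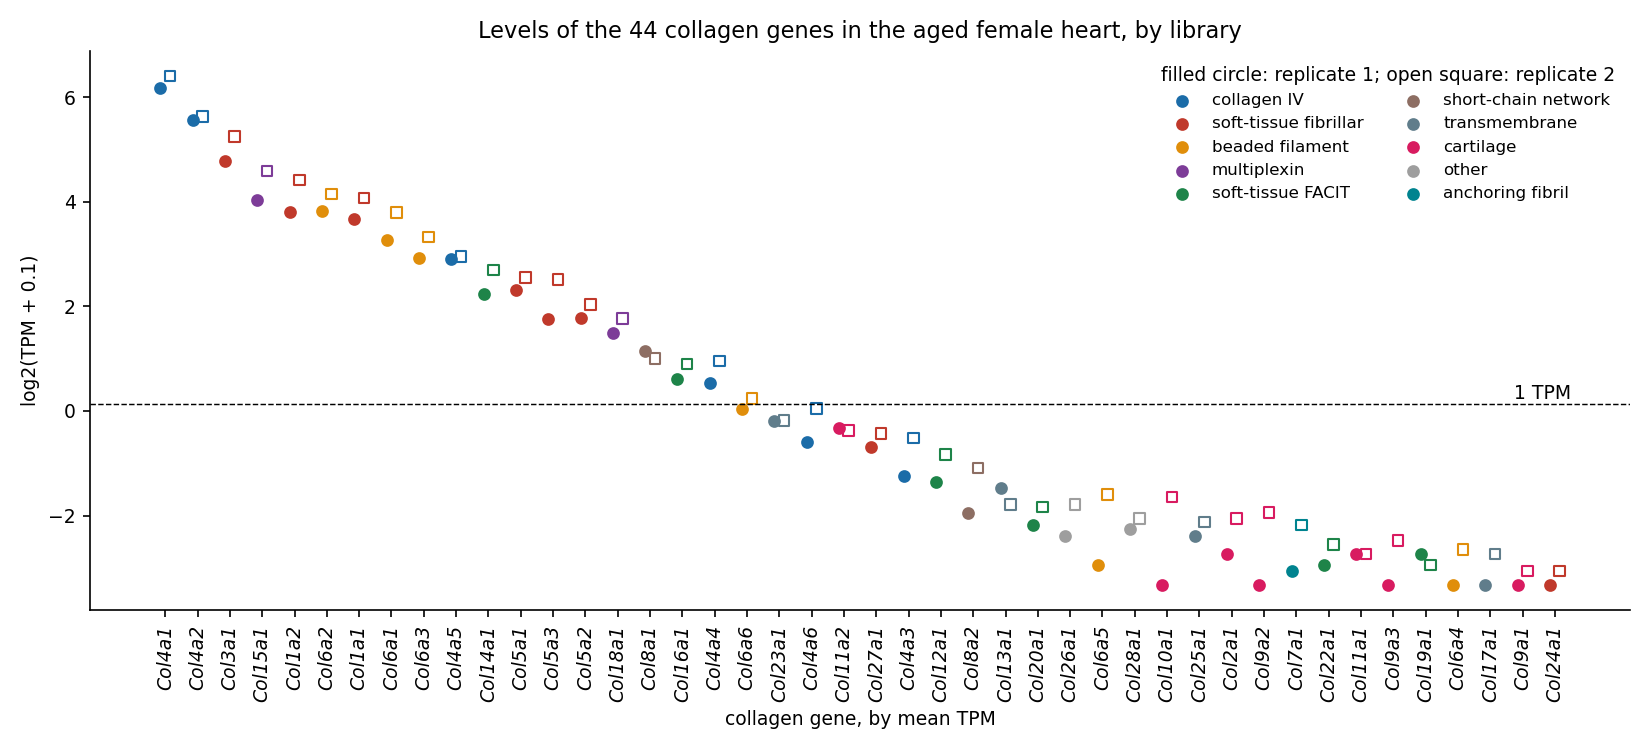
Level of each of the 44 collagen genes as log2(TPM + 0.1), ordered by mean TPM and coloured by class; filled circles are replicate 1, open squares replicate 2 and the dashed line marks 1 TPM. The 18 genes detected in both libraries reach from Col4a1 down to Col4a4, and no cartilage collagen lies above the line.

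The summed levels of the classes differed by more than the libraries did. Collagen IV led with 129.0 and 144.9 TPM in replicates 1 and 2, which was 47.7% ± 3.56 of the collagen TPM. The 8 soft-tissue fibrillar genes followed with 66.1 and 92.0 TPM, or 27.2% ± 2.08. The 6 soft-tissue FACIT genes had 6.51 and 8.87 TPM, or 2.65% ± 0.163, and the 7 cartilage genes 0.80 and 1.34 TPM, or 0.364% ± 0.0751 (SD, n = 2 throughout). Among these 4 sums, both libraries of each class lay above both libraries of the next. This order is one of sums, and that of collagen IV was carried by Col4a1 and Col4a2. By the median gene, collagen IV had 4.36 and 4.75 TPM in replicates 1 and 2 and the soft-tissue fibrillar class 4.09 and 5.70 TPM, so these classes overlapped. Between fibrillar and FACIT genes lay the beaded-filament class of collagen VI, with 32.0 and 42.8 TPM, and the multiplexins, basement membrane collagens with many interruptions, with 19.0 and 27.2 TPM. The remaining 4 classes, which are short-chain, transmembrane, anchoring-fibril and other collagens, each had a mean of 2.28 TPM or less.

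**Figure D2:**
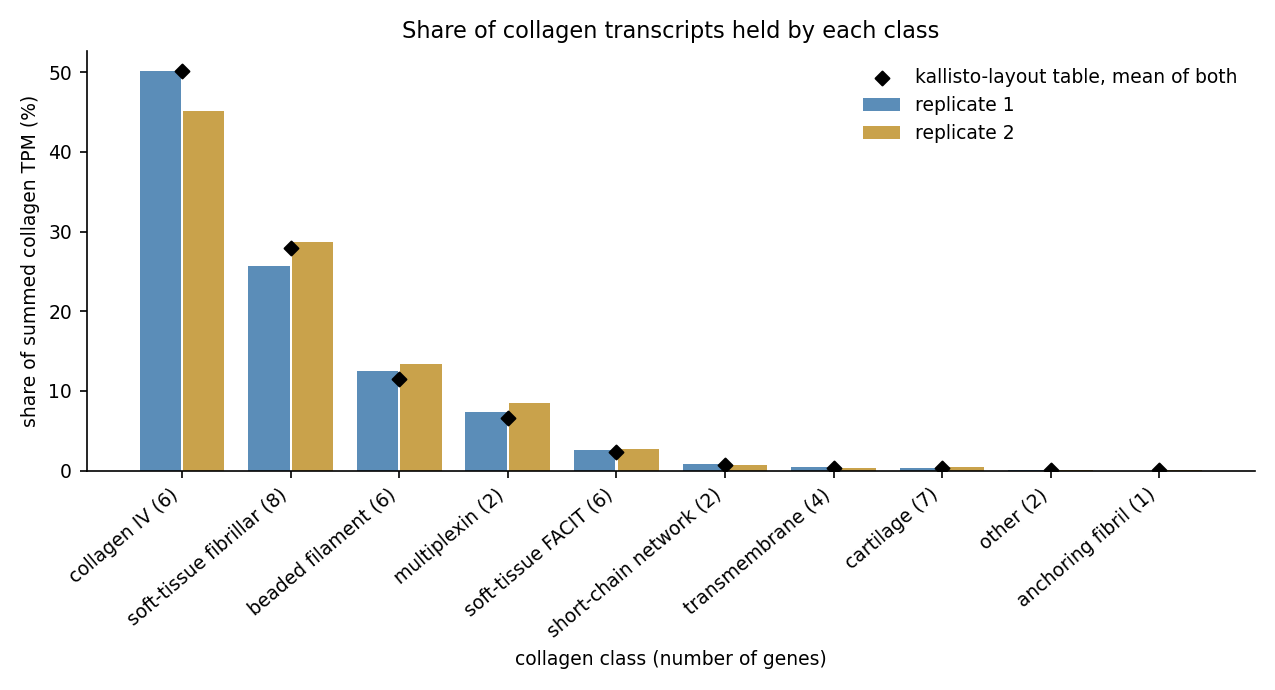
Share of the summed collagen TPM held by each class, in percent, with the number of genes in brackets; bars are replicate 1 and replicate 2 and diamonds the mean of both libraries in the kallisto-layout table. Collagen IV held 50.2% in replicate 1 and 45.2% in replicate 2, and cartilage collagens 0.311% and 0.418%.

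Collagen IV rested on the chain pair found in nearly all basement membranes. Col4a1 (chr8:11198423-11312826, minus strand) had 71.9 and 84.5 TPM in replicates 1 and 2, a mean of 78.2 ± 8.91 TPM, and stood higher than 96.7% of protein-coding genes. Its partner Col4a2 (chr8:11312805-11449287, plus strand) had 47.5 and 49.4 TPM, a mean of 48.4 ± 1.34 TPM (SD, n = 2). In the gene table both libraries of Col4a1 lay above both of Col4a2, and both of Col4a2 above those of every other member. In the kallisto-layout table Col4a2, with 50.1 and 53.1 TPM, overlapped the fibrillar gene Col3a1, with 38.9 and 57.8 TPM. The other collagen IV chains are those of more specialised basement membranes, among them the glomerulus of the kidney, where human mutations cause Alport syndrome. Col4a5 had 7.37 and 7.65 TPM with a ratio of expected counts of 1.06 between the libraries and an exact 95% interval of 0.979 to 1.14. Col4a4 had 1.34 and 1.84 TPM. Below the threshold were Col4a6 with 0.56 and 0.93 TPM and Col4a3 with 0.32 and 0.60 TPM.

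The 6 collagen IV genes lie in 3 divergent pairs, each pair reading outward from a shared region. The start sites of Col4a1 and Col4a2 are 21 nt apart in the annotation and those of Col4a3 and Col4a4 72 nt apart, while those of Col4a5 and Col4a6 are 1309 nt apart. The members of a pair differed in level in the gene table. The log2 ratio of TPM + 0.1 was 0.69 ± 0.12 for Col4a1 over Col4a2, -1.62 ± 0.22 for Col4a3 over Col4a4 and 3.21 ± 0.42 for Col4a5 over Col4a6 (SD, n = 2). In all 3 pairs the ratio had one sign in both libraries, and its distance from 0 exceeded the gap between them. This was lost for Col4a3 over Col4a4 in the kallisto-layout table, with -1.46 and -0.64, and for Col4a1 over Col4a2 between the full-length transcripts, with 0.08 and 0.27.

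Among fibrillar collagens, Col3a1, the chain of collagen III found in the walls of vessels and the heart interstitium, was highest. It had 27.5 and 37.9 TPM in replicates 1 and 2 (chr1:45311538-45349706, plus strand), a mean of 32.7 ± 7.38 TPM. Col1a2 (chr6:4504814-4541544, plus strand) had 13.97 and 21.3 TPM, a mean of 17.6 ± 5.16 TPM. Col1a1 (chr11:94936224-94953042, plus strand) had 12.7 and 16.7 TPM, a mean of 14.7 ± 2.89 TPM. Col1a1 and Col1a2 encode the chains of collagen I, the main fibre protein of tendon, bone and scar, and a trimer of it has more of the Col1a1 than of the Col1a2 chain. In RNA the log2 ratio of Col1a1 over Col1a2 was -0.14 and -0.34, with a mean of -0.24 ± 0.14, and the gap between the libraries was larger than the distance of the nearer one from 0.

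Collagen V, which joins collagen I in the same fibrils and limits their width, was made of 3 detected genes of a similar level. Col5a1 had 4.85 and 5.77 TPM in replicates 1 and 2, a mean of 5.31 ± 0.651 TPM. Col5a3, whose chain replaces others in some collagen V trimers, had 3.30 and 5.62 TPM, a mean of 4.46 ± 1.64 TPM. Col5a2 had 3.32 and 3.99 TPM, a mean of 3.66 ± 0.474 TPM (SD, n = 2). Col5a1 was above Col5a2 in both libraries, with a log2 ratio of 0.53 ± 0.01, while Col5a3 and Col5a1 overlapped. The last 2 fibrillar genes were below 1 TPM, Col27a1 with 0.52 and 0.64 TPM and Col24a1 with 0 and 0.02 TPM. Col3a1 stood above Col1a1 by a log2 ratio of 1.14 ± 0.04, a ratio of 2.21. This ratio takes 1 chain of collagen I, so it does not say that collagen III exceeded collagen I with both chains counted. In the gene table the leading collagen IV chain, Col4a1, stood 5.33 times above Col1a1 and 2.41 times above Col3a1. In the kallisto-layout table it stood 7.52 and 2.38 times above them. Between full-length transcripts the ratio to Col4a1-201 was 0.270 for Col1a1-201 and 0.479 for Col3a1-201.

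The beaded filaments of collagen VI lie between basement membrane and interstitium, and human mutations in its chains cause muscular dystrophies. Col6a2 had 14 and 17.7 TPM in replicates 1 and 2, a mean of 15.8 ± 2.6 TPM. Col6a1 had 9.54 and 13.8 TPM, a mean of 11.7 ± 3.01 TPM. Col6a3, the longest of the chains, had 7.50 and 9.96 TPM, a mean of 8.73 ± 1.74 TPM (SD, n = 2). The order Col6a2, Col6a1, Col6a3 held within each library, with log2 ratios of -0.45 ± 0.14 for Col6a1 over Col6a2 and -0.40 ± 0.09 for Col6a3 over Col6a1. Across libraries Col6a1 and Col6a3 overlapped. Col6a2 and Col6a1 were barely apart in the gene table and overlapped in the kallisto-layout table, where Col6a2 had 14.99 TPM in replicate 1 and Col6a1 15.3 TPM in replicate 2, and with protein-coding transcripts only. Col6a6, which encodes an alternative to the Col6a3 chain, had 0.93 and 1.08 TPM, just under the threshold in replicate 1, and was the highest of the members not detected in both libraries.

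Col15a1 and Col18a1 are multiplexins, which are anchored in basement membranes and whose ends can be cleaved to fragments that act on vessels. Col15a1 had 16.3 and 23.9 TPM in replicates 1 and 2, a mean of 20.1 ± 5.38 TPM, and ranked 4 of 44. Col18a1 had 2.72 and 3.31 TPM, a mean of 3.02 ± 0.417 TPM (SD, n = 2). Their log2 ratio was 2.68 ± 0.19, so that Col15a1 stood 6.4 times above Col18a1.

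Of the FACIT collagens 2 of 6 were detected. Col14a1, which binds collagen I fibrils and the proteoglycan decorin, had 4.59 and 6.37 TPM in replicates 1 and 2, a mean of 5.48 ± 1.26 TPM. Col16a1, a FACIT-like chain known from skin and smooth muscle, had 1.43 and 1.76 TPM, a mean of 1.595 ± 0.233 TPM (SD, n = 2). Col12a1, the relative of Col14a1 best known from tendon and ligament, had 0.29 and 0.46 TPM. Col14a1 stood 11.8 times above it on the scale of TPM + 0.1, 14.6 times by mean TPM and 4.68 times with a pseudocount of 1 TPM. The only detected short-chain gene was Col8a1, a network collagen of vessel walls and the cornea, with 2.12 and 1.90 TPM. Col23a1, a transmembrane collagen that is shed from the cell surface, was next below the threshold after Col6a6 with 0.77 and 0.78 TPM.

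In the order of the 18 detected genes, 7 of the 17 neighbouring pairs did not overlap between libraries and 10 did. Col4a1, Col4a2 and Col3a1 each stood clear of the next in the gene table, an order that the kallisto-layout table did not keep for Col4a2 and Col3a1. Between full-length transcripts Col4a1-201, with 49.0 and 59.7 TPM, overlapped Col4a2-201, with 46.3 and 49.4 TPM. From Col15a1 down to Col4a5, a range that takes in collagen I and collagen VI, each gene overlapped its neighbour. The 26 members not detected had mean levels between 0.01 and 1.005 TPM with a median of 0.1175 TPM. Of these, 12 had 10 or more expected counts in both libraries, 8 had fewer than 10 in both, and 7 were listed at 0 TPM in replicate 1.

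Cartilage collagens were at the edge of what this depth can show, with Col11a2 the highest of them. By the TPM used here, none of the 7 reached 1 TPM in both libraries. Col11a2, a fibrillar chain that joins collagen II, had 0.70 and 0.67 TPM in replicates 1 and 2, from 53 and 71 expected counts. By the deposited posterior mean TPM it did reach it, with 1.27 and 1.19, and credibility bounds of 0.62 to 2.02 and 0.64 to 1.78. In the kallisto-layout table Col11a2 had 0.45 and 1.02 TPM, and its protein-coding transcripts alone had 0.29 and 0.36 TPM in the RSEM-layout table. Col2a1, the main collagen of cartilage fibrils, had 0.05 and 0.14 TPM, from 2 and 9 counts. These values lay below its credibility bounds of 0.21 to 0.92 and 0.28 to 1.04. Col11a1, the fibril partner of Col2a1, had 0.05 TPM in both libraries, from 3 and 12 counts. Col9a1, Col9a2 and Col9a3, the chains of the FACIT collagen of cartilage, were listed at 0 in replicate 1 and had 0.02, 0.16 and 0.08 TPM in replicate 2, from 2, 5 and 5 counts. Col10a1, the collagen of hypertrophic chondrocytes, had 0 counts in replicate 1 and 20 counts, or 0.22 TPM, in replicate 2.

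The 7 cartilage genes together had 124 expected counts in replicate 2 against 58 in replicate 1. Scaled to depth, replicate 2 was 2.08 times higher, with an exact 95% interval of 1.51 to 2.89, which like all such intervals here covers counting error only. Without Col11a2, a split made after the values were seen that drops the member with most counts and a small gap, there were 53 against 5 counts, a ratio of 10.3 (4.15 to 33.0). For Col10a1 alone, replicate 2 was 6.48 times the floor of 3 counts in replicate 1, and the exact 95% interval of the ratio of 20 to 0 counts begins at 4.80. Col10a1 lies within Nt5dc1 on the opposite strand in the annotation, and the labels call the libraries stranded. Col6a5, no cartilage gene but a low collagen VI chain, also differed, with 0.23 TPM in replicate 2 against 0.03 TPM in replicate 1 and a ratio of counts of 10.1 (4.36 to 28.4). It shares 3.99% of its 31-nt words with other genes, mostly with Col6a6. The 8 chondrocyte markers summed to 6.01 TPM in replicate 2, against 5.49 TPM in replicate 1, and 2 of them were at 1 TPM or more in both. The list went both ways. Chad, a cartilage matrix protein, had 1.25 TPM in replicate 2 against 0.34 TPM in replicate 1, Comp, another, 2.56 against 1.89 TPM, Acan, the proteoglycan aggrecan, 0.11 against 0.02 TPM, Hapln1 0.15 against 0.13 TPM and Matn1 0.04 TPM against 0. Cnmd, a cartilage membrane protein, had 1.51 TPM in replicate 2 against 2.39 TPM in replicate 1, Sox9, a transcription factor of chondrocytes, 0.39 against 0.72 TPM, and Matn3 was at 0 in both. The airway epithelium markers stood at 233.8 against 0.61 TPM, and their part in the cartilage collagen counts was not tested.

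How much of a gene's TPM came from its full-length transcript differed between members. At a mean of 1 TPM or more, 19 members could be compared. In 18 of them the top transcript was protein-coding and held over 50% of the gene's TPM. The median share over the 19 was 90.5%. How common such a top transcript is among other protein-coding genes was not worked out. For all 19 the RSEM-layout and the kallisto-layout transcript tables named one top transcript, counting as the same the tie of 2 Col16a1 transcripts. Among all such protein-coding genes with several transcripts, the top transcript differed in 23.1%. Col6a1-201 and Col5a1-201 held 100% in both libraries, Col1a1-201 held 99.7% ± 0.368, Col4a2-201 held 98.8% ± 1.66, Col4a5-202 held 95.8% ± 0.898, Col6a2-201 held 90.5% ± 1.65 and Col1a2-201 held 90.2% ± 3.74 (SD, n = 2). At the low end Col14a1 was split, with Col14a1-201 at 49.2% in replicate 1 and 58.4% in replicate 2. Col16a1 was the least certain of the detected members: its posterior mean TPM of 2.57 and 2.84 in replicates 1 and 2, with deposited credibility bounds of 1.72 to 3.54 and 1.96 to 3.81, lay above the 1.43 and 1.76 TPM given above. Of its TPM, 79.7% came from transcripts not annotated as protein-coding.

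The highest collagen gene was one of the divided ones. Col4a1-201, the full-length transcript of 6615 nt, held 68.1% and 70.6% of the Col4a1 TPM in replicates 1 and 2. Col4a1-203, a transcript of 545 nt, held 26.1% and 28.5%. Of the expected counts of the gene, Col4a1-201 had 97.0% and 97.2% and Col4a1-203 had 2.55% and 2.68%. Of the 31-nt words of Col4a1-203, 93.4% also occur in Col4a1-201, and 8 of its 10 exons are identical to exons there. The kallisto-layout table gave Col4a1-201 47.9% and 53.4% of the gene, and gave 16.9% to Col4a1-204 and 11.5% to Col4a1-207, which are also short, as means of both libraries. The length over which reads were counted differed between the tables: for Col4a1-203 the effective length was 446 nt in both libraries of the RSEM-layout table, against 222 and 224 nt in the kallisto-layout table. TPM divides the reads of a transcript by this length, and the part of this length in the shares was not tested.

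Col3a1 showed the same division. Col3a1-201 held 73.5% and 87.3% of its TPM in replicates 1 and 2, and 55.5% as the mean in the kallisto-layout table. The 737 nt transcript Col3a1-205, with 96.2% of its words in Col3a1-201, held 19.9% and 11.6%, against 41.0% as the mean in the kallisto-layout table. It had 3.02% and 1.52% of the expected counts of Col3a1. In Col6a3 the full-length Col6a3-202 held 61.5% and 60.1%, and the retained-intron transcript Col6a3-206 of 646 nt held 20.6% and 25.9%. In Col15a1, Col15a1-202 held 72.6% and 66.6% and the shorter coding transcript Col15a1-203 held 21.3% and 21.2%, yet the kallisto-layout table listed Col15a1-203 at 0 in both libraries. There the 404 nt Col15a1-206 had 16.9% of the gene and, in Col1a2, the 850 nt Col1a2-205 had 13.7%, against 3.21% and 7.63% in the RSEM-layout table, all as means of both libraries.

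**Figure D3:**
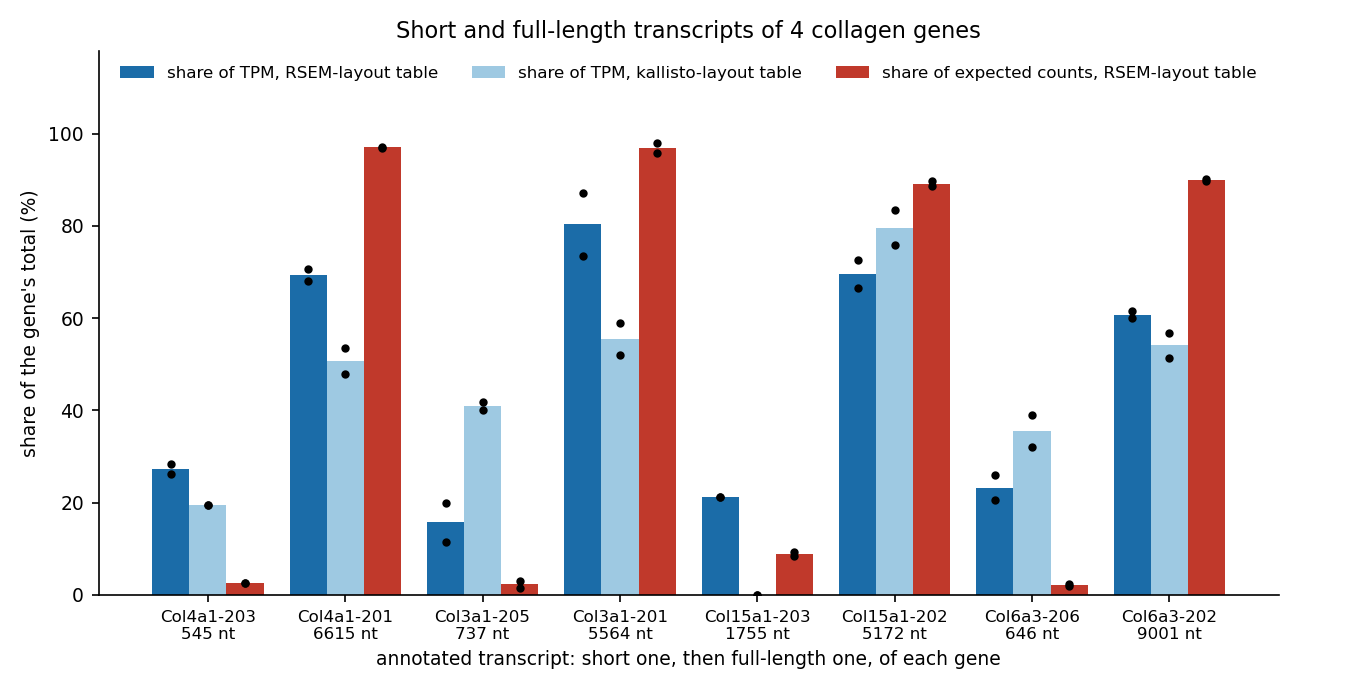
Share of each gene's total held by a short and by a full-length transcript of Col4a1, Col3a1, Col15a1 and Col6a3, in percent; bars are means of both libraries for TPM in the RSEM-layout table, TPM in the kallisto-layout table and expected counts, and dots are the libraries. Col4a1-203 has 26.1% and 28.5% of the TPM of its gene from 2.55% and 2.68% of its expected counts.

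Gene levels and chain ratios were then set side by side in both tables. None of the 19 members with a mean of 1 TPM or more was over 1.5 times higher in the kallisto-layout table, where 9.63% of protein-coding genes with a mean of 1 TPM or more were, and none was over 1.5 times lower, where 1.39% were. Among the lower members some were, such as Col7a1, the anchoring fibril collagen, at 2.56 times. Of the 19, Col3a1 at 1.48 times and Col4a1 at 1.45 times were just inside. The ratio of Col4a1 over Col4a2 was 1.61 in the gene table and 2.19 in the kallisto-layout table. Between the full-length transcripts Col4a1-201 and Col4a2-201 it was 1.13, a log2 ratio of 0.08 in replicate 1 and 0.27 in replicate 2. This comparison was added after the data were seen, and in it the libraries differed by more than the nearer one's distance from 0. The ratio of Col3a1 over Col1a1 was 2.21 in the gene table, 3.16 in the kallisto-layout table and 1.78 between the full-length transcripts. Between Col1a1-201 and Col1a2-201 the log2 ratio was 0.05 in replicate 1 and -0.24 in replicate 2.

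Of the 17 pairs of chains compared, 15 had a log2 ratio of one sign in both libraries and farther from 0 than the gap between them. The exceptions were Col1a1 over Col1a2 and Col5a3 over Col5a1. The share of pairs of other genes that meet this criterion was not worked out. Beside the pairs given above, Col8a1 stood above Col8a2, which had 0.16 and 0.37 TPM in replicates 1 and 2, by 6.03 times on the scale of TPM + 0.1, 7.58 times by mean TPM and 2.39 times with a pseudocount of 1 TPM. In the kallisto-layout table Col4a3 over Col4a4 no longer met this criterion, as given above, while Col5a3 over Col5a1 did, with -0.52 and -0.28. Of the 18 detected genes, 12 overlap another annotated gene and 6 of them one on the same strand, and at most 1.12% of the 31-nt words of a detected gene, in Col3a1, occur in another gene.

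**Figure D4:**
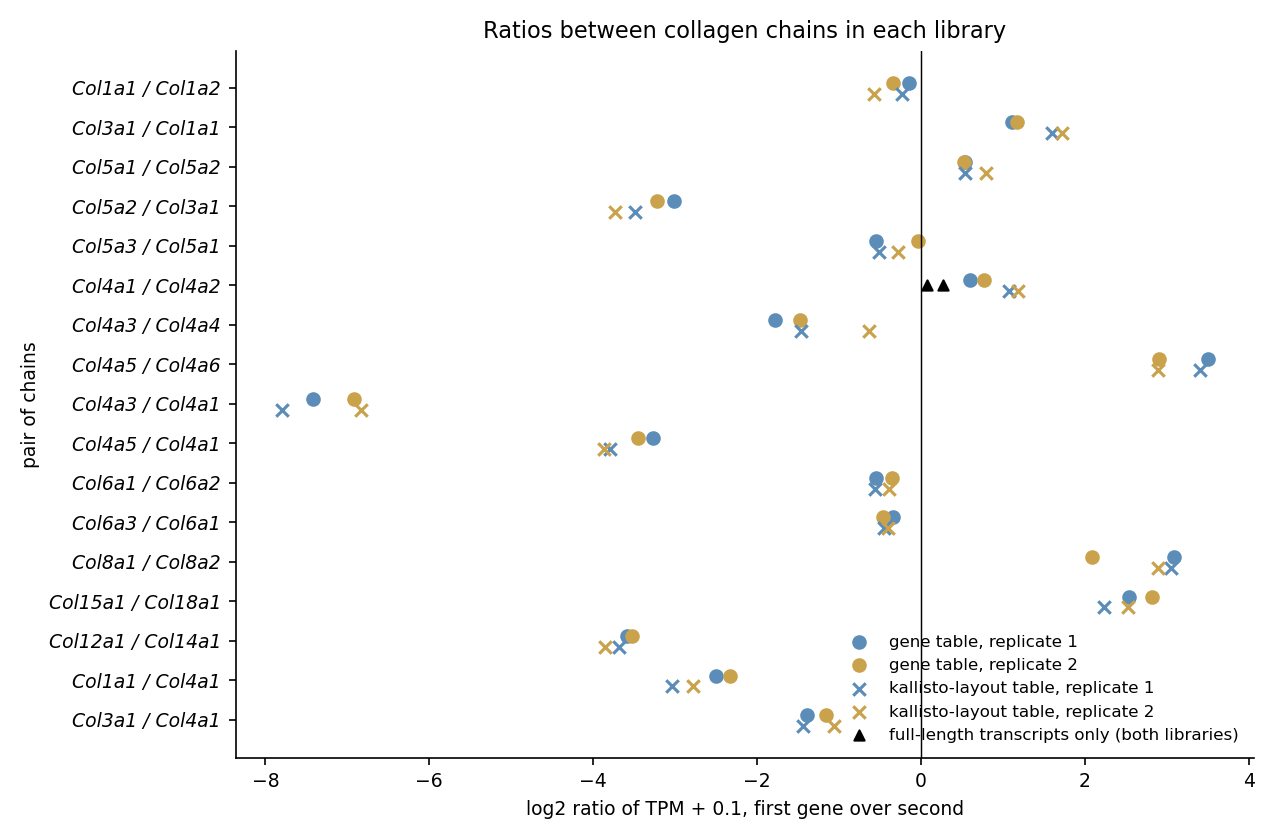
Log2 ratio of TPM + 0.1, first gene over second, for 17 pairs of collagen chains; circles are the gene table, crosses the kallisto-layout table, with replicate 1 and replicate 2 in separate colours, and triangles the full-length transcripts of Col4a1 and Col4a2. Col4a1 over Col4a2 lies at 0.60 and 0.78 in the gene table, and its triangles at 0.08 and 0.27.

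Between the libraries the members moved one way but not far. Replicate 2 was higher for 18 of 19 members with a mean of 1 TPM or more (94.7%), against 53.8% of the 11341 protein-coding genes at that level. The exception was Col8a1, with 2.12 and 1.90 TPM in replicates 1 and 2. None of the 19 was 2-fold or more higher in replicate 2, where 2.77% of all such genes were, and none was 2-fold or more lower, where 0.6% were. The median log2 ratio of replicate 2 over replicate 1 was 0.33 over the members, with a range of -0.15 to 0.75, and 0.02 over protein-coding genes. Under 6 other scalings or tables, among them size factors from expected counts, the median of the members lay between 0.30 and 0.42, and Col8a1 was the lone exception in each. All members were measured in the same 2 libraries, and several are made by the same cells, so they are not replicates of each other.

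The size of the gap differed from class to class, a difference that was not tested. Over members with a mean of 1 TPM or more, the median log2 ratio was 0.43 in 6 soft-tissue fibrillar genes, 0.41 in 2 multiplexins, 0.37 in 4 collagen VI genes, 0.37 in 2 FACIT genes and 0.14 in 4 collagen IV genes. The genes of these classes overlapped, with log2 ratios of 0.25 to 0.75 in soft-tissue fibrillar genes and 0.05 to 0.43 in collagen IV genes. Col5a3 had the widest gap, with a ratio of counts of 1.76 and an exact 95% interval of 1.58 to 1.96. Col1a2 and Col3a1 had ratios of counts of 1.63 (1.54 to 1.73) and 1.64 (1.57 to 1.71), and Col4a2 had 1.09 (1.06 to 1.12). Collagen IV held 45.2% of the collagen TPM in replicate 2 against 50.2% in replicate 1, and the share of soft-tissue fibrillar collagens was 28.7% against 25.7%.

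Cell type markers also differed between the libraries. Among 8 fibroblast markers the median log2 ratio was 0.23, and 7 of them had the higher value in replicate 2. Their highest genes were Gsn, which encodes gelsolin, with 311.8 TPM in replicate 2 against 258.8 TPM in replicate 1, Dcn, the proteoglycan decorin, with 141.5 against 135.3 TPM, and Dpt, the matrix protein dermatopontin, with 35.2 against 31.7 TPM. The fibroblast marker that was lower in replicate 2 was Tcf21, with 2.71 TPM against 3.64 TPM in replicate 1. Of the 8 markers Dcn, Lum and Pcolce also stand in the lists of collagen partners and processing given below. The median log2 ratio was -0.09 over 6 endothelial markers, -0.15 over 7 mural markers and -0.06 over 5 cardiomyocyte markers. By sum the endothelial markers were higher in replicate 2, with 457.9 against 385.0 TPM. Only 1 of these 6 was higher there, Fabp4, with 301.5 against 206.7 TPM, so the higher sum rested on this gene alone. The sums were lower in replicate 2 for mural markers, with 277.4 against 292.0 TPM, and for cardiomyocyte markers, with 26381 against 27343 TPM. The 6 mesothelial markers, from the cells that cover the heart surface, were all higher in replicate 2, with sums of 28.5 TPM in replicate 2 against 18.1 TPM in replicate 1. In bulk RNA, more cells of a type and more RNA per cell cannot be told apart, and the part of these cell types in the collagen difference was not tested. In replicates 1 and 2, the 5 macrophage markers summed to 38.2 and 43.7 TPM, the 6 Schwann cell markers to 8.0 and 9.53 TPM, the 7 markers of valve and tendon to 10.7 and 10.6 TPM and the 5 of skeletal muscle, which include the heart-expressed Ckm and Acta1, to 1723 and 1609 TPM. Adipocyte markers were led by Cfd, a complement factor of fat, with 169.3 TPM in replicate 2 against 15.1 TPM in replicate 1, and airway markers by Bpifa1, a secreted airway protein, with 157.1 TPM in replicate 2 and 0 in replicate 1.

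**Figure D5:**
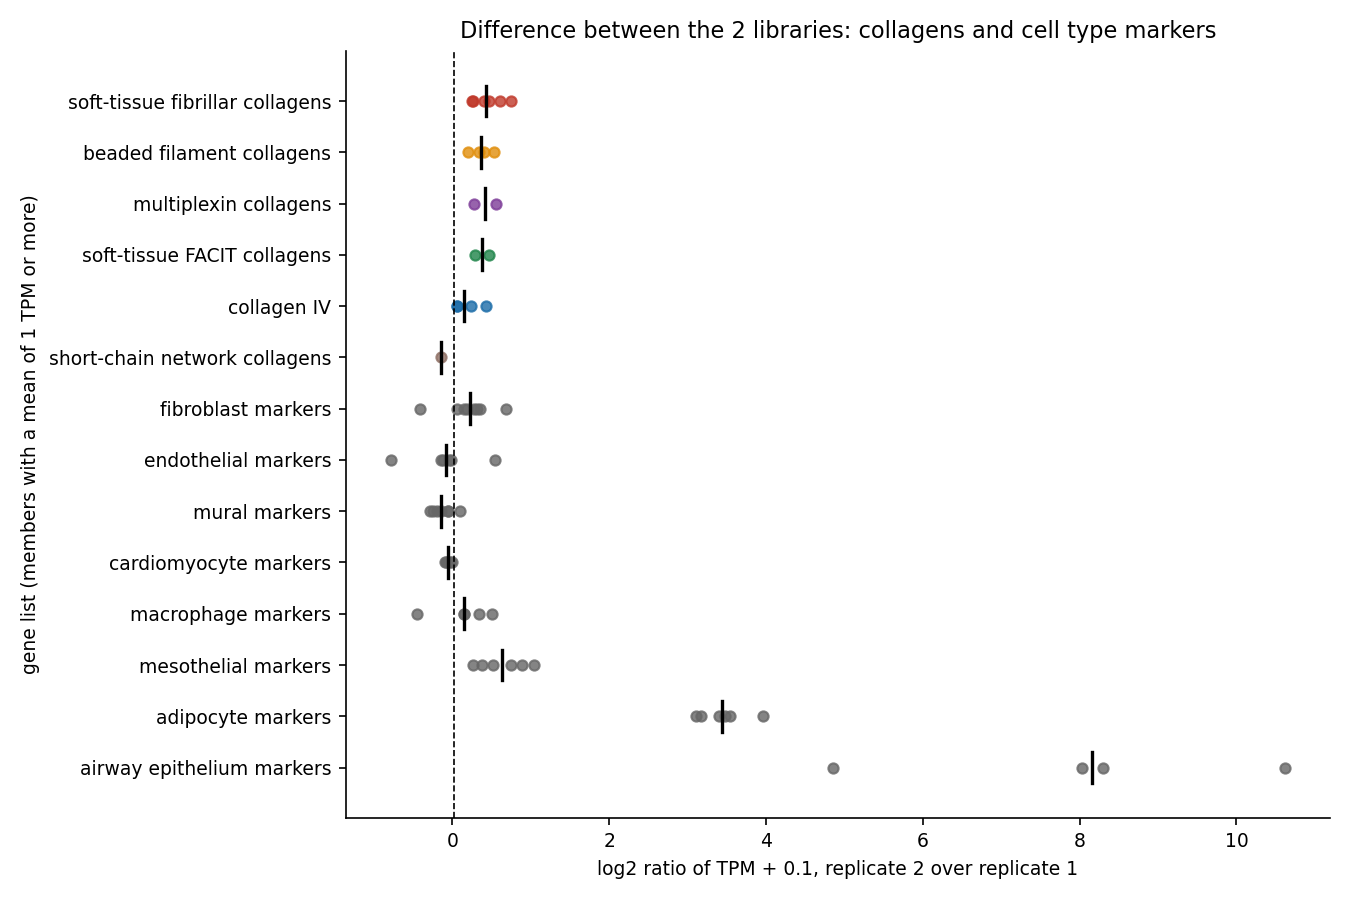
Log2 ratio of TPM + 0.1, replicate 2 over replicate 1, for collagen genes by class and for cell type markers, over genes with a mean of 1 TPM or more; points are genes, black ticks the medians and the dashed line the median of protein-coding genes at 0.02. Fibrillar collagens have a median of 0.43 and collagen IV of 0.14, while adipocyte and airway markers lie far to the right.

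The genes that modify, fold and export collagen chains were nearly all detected. For this and the lists below, the share among nuclear protein-coding genes was 49.9%, and the lists were chosen with earlier results of these data known. Of 15 genes for prolyl and lysyl modification, which hydroxylate and glycosylate the chains, 14 had 1 TPM or more in both libraries. The highest were P4hb, the beta subunit of prolyl 4-hydroxylase, with 90.5 and 89.4 TPM in replicates 1 and 2, Ppib, a prolyl isomerase, with 44.5 and 39.7 TPM, and P4ha2, a catalytic subunit of prolyl 4-hydroxylase, with 27.7 and 21.6 TPM. All 12 genes for folding and export were detected, led by the chaperone Hspa5 with 421.1 and 218.8 TPM. Serpinh1, the collagen-specific chaperone HSP47, had 85.8 and 77.8 TPM, and Pdia3, a disulfide isomerase, had 67.7 and 43.9 TPM. These 3 had lower values in replicate 2, while over the list 5 of 12 were higher there, with a median log2 ratio of -0.07, and in the modification list 10 of 14 were higher, with a median of 0.11.

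After secretion, ends of fibrillar chains are cut off and the fibres are cross-linked. Of 8 genes for propeptide removal 5 were detected, with Pcolce, an enhancer of the cutting, at 14.8 and 18.5 TPM in replicates 1 and 2, its relative Pcolce2 at 10.9 and 10.8 TPM and the protease Bmp1 at 4.0 and 4.80 TPM. Of 5 lysyl oxidases, which form the cross-links, 2 were detected, Loxl1 with 7.54 and 7.12 TPM and Loxl2 with 3.85 and 3.80 TPM. Lox, the next highest and the founding member of that family, had 0.74 and 1.04 TPM. Of 14 fibril partners 13 were detected, led by Dcn, then Sparc, a collagen-binding matrix protein, with 91.9 and 102.7 TPM, and Bgn, the proteoglycan biglycan, with 62.5 and 72.5 TPM.

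Partners of collagen IV were also present at high levels. Of 16 basement membrane genes 13 were detected, led by Lamb2, a laminin beta chain, with 128.6 and 130.0 TPM in replicates 1 and 2. Hspg2, the proteoglycan perlecan, had 51.8 and 59.5 TPM, and Lamc1, a laminin gamma chain, had 32.8 and 32.3 TPM. Among 11 collagen receptors 6 were detected. The 3 highest were Itgb1, the integrin beta chain shared by the collagen-binding integrins, with 119.2 and 125.5 TPM, Adgrg1, an adhesion receptor that binds collagen III, with 13.2 and 23.6 TPM, and Itga1, an integrin alpha chain, with 12.04 TPM in both. Of 7 degradation genes 4 were detected, led by the gelatinase Mmp2 with 22.4 and 22.3 TPM, the membrane protease Mmp14 with 6.92 and 5.94 TPM and the cathepsin Ctsk with 2.18 and 2.12 TPM.

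All 14 genes for transcription and signals that act on collagen genes were detected. The highest were Srf, a transcription factor of contractile genes, with 49.97 and 36.4 TPM in replicates 1 and 2, and Ccn2, a matrix protein induced by TGF-beta, with 30.5 and 50.1 TPM. Cebpb, a transcription factor active in inflammation and in fat cells, had 62.1 TPM in replicate 2 against 18.3 TPM in replicate 1, and was the only gene of the 9 pathway lists that was 2-fold or more apart at a mean of 1 TPM or more. In the other 8 lists the median log2 ratio of replicate 2 over replicate 1 lay between -0.07 and 0.20, below the 0.33 of the collagen genes, and this difference was not tested.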

How the data were processed

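Total RNA of the heart was sequenced by the authors, with 2 libraries of 1 group. Per the deposited readme, all tables refer to mm10 and GENCODE M21; per the file headers, 1 gene and 1 transcript table have the layout of RSEM and 1 transcript table that of kallisto. Programs and versions: not given in the sources used here. Expected counts and TPM were deposited by the authors, the expected counts being estimated reads per gene or transcript, some of them split among genes, and TPM being scaled over all entries of a table. The authors also deposited the isoform percent, which is the part of a gene's TPM held by 1 transcript. Posterior mean TPM with credibility bounds were deposited too, per the file headers. No columns of other samples were present.

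From these, levels were averaged (mean ± SD, n = 2) in Python 3.11.15 with pandas 2.3.3, numpy 2.4.6 and scipy 1.17.1. Log2 ratios used a pseudocount of 0.1 TPM, which understates changes of low genes. Size factors came from edgeR 4.0.16 and DESeq2 1.42.0 on expected counts rounded to whole numbers. Ratio intervals are exact (Clopper-Pearson, 95%); they hold for counting error alone, as amplified reads are not separate molecules. Fold calculations were tested on simulated data, for genes at 1 TPM or more only, and the search for Gly-X-Y runs on a short made-up sequence. The alternatives changed the table, the transcripts, the scaling, the pseudocount, the threshold or the class borders, or left out a library.

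Named are all members at 1 TPM or more in both libraries, the 3 next highest, all cartilage collagens, the 3 highest genes of each list and genes of a list 2-fold apart with a mean of 5 TPM or more, at most 5 a list. Of transcripts, the top one of the 12 highest members is named, and, by a rule set after the data were seen, those of these genes under 2000 nt with 10% or more of the gene in either table were compared with it. The other members, markers and transcripts named were chosen after their values were seen. The members and lists were chosen with earlier results of these data known. Exon sequences were read from GENCODE M21 transcripts.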

Additional observations from a re-analysis of the deposited data

How the results depend on the processing

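No paired analysis was possible because there is 1 group. The share of collagen IV was 55.6% with the multiplexins and Col7a1 added to it. The FACIT share was 2.30% in the kallisto-layout table, 3.09% with posterior mean TPM and 2.30% with protein-coding transcripts only. The cartilage share was 0.946% with posterior mean TPM, 0.200% with protein-coding transcripts only and 0.207% of expected counts. The summed TPM was 353.2 in the kallisto-layout table and 712.2 rescaled to protein-coding genes. The number of collagen genes detected was 29 with a minimum of 0.1 TPM, 30 with a minimum of 10 expected counts and 23 after rescaling. It was 19 with posterior mean TPM, where Col11a2 was added, and 16 with protein-coding transcripts only. In that last setting Col16a1 was below 1 TPM in both libraries and Col4a4 in replicate 1. The share of all protein-coding genes detected was not worked out under these other settings, so these numbers have no background to be set against. With no filter on TPM, 3 collagen genes were 2-fold apart, namely Col6a5, Col9a2 and Col10a1, all on the scale of TPM + 0.1. By expected counts, 8 of the 26 undetected members were over 2-fold higher in replicate 2, those at 0 set to the floor. The share of all genes called in these 2 ways was not worked out, so neither count is a result about collagens. Among the 19 members, Col16a1 was 2-fold apart with protein-coding transcripts only, at 0.49 TPM in replicate 2 against 0.16 TPM in replicate 1. For the other changes the cause was not tested. Leaving out each library in turn gave collagen IV 45.2% to 50.2%, fibrillar 25.7% to 28.7%, FACIT 2.53% to 2.76% and cartilage 0.311% to 0.418%, a sum of 257.0 to 321.0 TPM and 18 to 19 detected genes. With 2 libraries a value without 1 of them always lies within 1 SD of the mean, so this is no sign of stability. With a pseudocount of 1 TPM the log2 ratio was -0.83 for Col4a3 over Col4a4 and 2.29 for Col4a5 over Col4a6. Of the 17 chain ratios, 1 lost its call and 1 gained it in the kallisto-layout table, and 7 of 19 gene levels there moved by more than 1 SD. Genes under 10 expected counts cannot be ranked at this depth.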
